A study of Vitis vinifera with 6 samples.

Results

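Carotenoids are the yellow and orange plastid pigments that leaves keep beside chlorophyll, where they collect light and quench excess energy. Phytoene synthase commits geranylgeranyl diphosphate to the pathway, hydroxylases turn β-carotene into zeaxanthin, and zeaxanthin epoxidase adds the epoxide groups that lead on to violaxanthin and, further along, to abscisic acid. Carotenoid cleavage dioxygenases cut the finished pigments into smaller apocarotenoids, among them the C13-norisoprenoids that contribute to grape aroma. The 8 genes described here were chosen by name as members of these steps: the phytoene synthases *PSY1* and *PSY2*, the β-carotene hydroxylases *BCH1* and *BCH2*, the epoxidase *ZEP*, and the cleavage enzymes *CCD1*, *CCD4a* and *CCD4b*. They are 8 of the 34369 probes for genes on a grapevine microarray, and each is represented by 1 probe.

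The levels were measured in young Shiraz leaves (*Vitis vinifera*, grapevine), in 3 arrays of plants overexpressing *VviNAC33* (OXNAC33) and 3 arrays of control plants (Control). *VviNAC33* encodes a NAC transcription factor, and in the OXNAC33 plants it was driven by the *35S* promoter of cauliflower mosaic virus, which is active in most tissues. Per the study's methods, the OXNAC33 replicates were independent transgenic lines, each sampled as pooled leaves, and the plants compared with them were vector controls; which control plants gave which array is not given in the sources used here. The question put to the data was how these 8 genes differed between OXNAC33 and Control leaves.

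Each level is the log2 signal of the probe relative to the 75th percentile of its own array, so 0 means a signal at that percentile and a difference of 1 is a doubling. Probes bind with different strength, so levels were compared between arrays and never between genes. All 8 genes were well above background on all 6 arrays, none of whose spots was saturated. The files were scanned in 2 sessions, with OXNAC33 replicates 1 and 2 and Control replicate 1 in session 1, and OXNAC33 replicate 3 and Control replicates 2 and 3 in session 2. All 5 light-harvesting and photosystem genes used to check the tissue were well above background on every array and at or above the 93.9th percentile of probes. Their changes ran between -1.79 and -0.04 and none was called, and their part in the results below was not tested.

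*VviNAC33* itself stood at -0.54, -3.89 and -1.0 in OXNAC33 replicates 1, 2 and 3, against -5.22, -4.14 and -4.01 in Control replicates 1, 2 and 3. OXNAC33 replicates 1 and 3 were 15.1-fold and 11-fold above the Control mean, while OXNAC33 replicate 2 was 1.48-fold above it, which is 0.12 log2 units over the highest Control array. The study selected its 3 lines for the highest *VviNAC33* expression by qPCR, a ranking that the low array signal of OXNAC33 replicate 2 does not reflect. The reason was not tested, and which line gave which array is not stated in the sources used here. The difference in *VviNAC33* between OXNAC33 and Control was 2.65 (SE 0.88) with an adjusted p of 0.116 in limma. It was 3.69 (limma adjusted p = 0.0198) without OXNAC33 replicate 2, 2.97 (0.0081) with spike-in scaling and 1.20 (0.33) with normexp. Normexp is a second way to remove background, run here on median signals and with an offset of 50 added to each signal. Several of the results below are therefore also given without OXNAC33 replicate 2.

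Only *CCD4b* of the 8 genes passed the adjusted test. *CCD4b*, one of the enzymes that cut carotenoids within the plastid, rose 8.73-fold in OXNAC33 leaves (95% interval 3.08 to 24.8, n = 3 each). Its neighbour *CCD4a* was 4.81-fold higher, *CCD1* 1.97-fold and *ZEP* 1.85-fold, and in each the lowest OXNAC33 array lay above the highest Control array, but none of these passed the adjusted test. The synthases and hydroxylases *PSY1*, *PSY2*, *BCH1* and *BCH2* were between 0.990-fold and 1.33-fold of Control, with overlapping arrays.

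By count, 1 of the 8 genes was called higher and 0 lower at an adjusted p below 0.05 (limma, two-sided, Benjamini-Hochberg over 23907 probes), where 5.02% of all probes tested were called, 1.69% higher and 3.33% lower. At an unadjusted p below 0.05, 3 of the 8 were higher (*CCD4b*, *CCD4a* and *ZEP*) and 0 lower, where 27.3% of all probes passed, 11.7% higher. The OXNAC33 arrays lay wholly above the Control arrays in 4 of the 8 genes and wholly below in 0, against 15.1% and 20.4% of all probes. The change was above 0 in 7 of the 8 genes and in 49.2% of all probes, and its median was 0.65 in the 8 genes and -0.01 over all probes. The members were chosen with earlier results of these data known, so these counts are a description. In these leaf extracts, a change in RNA per cell and a change in the share of cells that express a gene cannot be told apart.

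**Figure D1:**
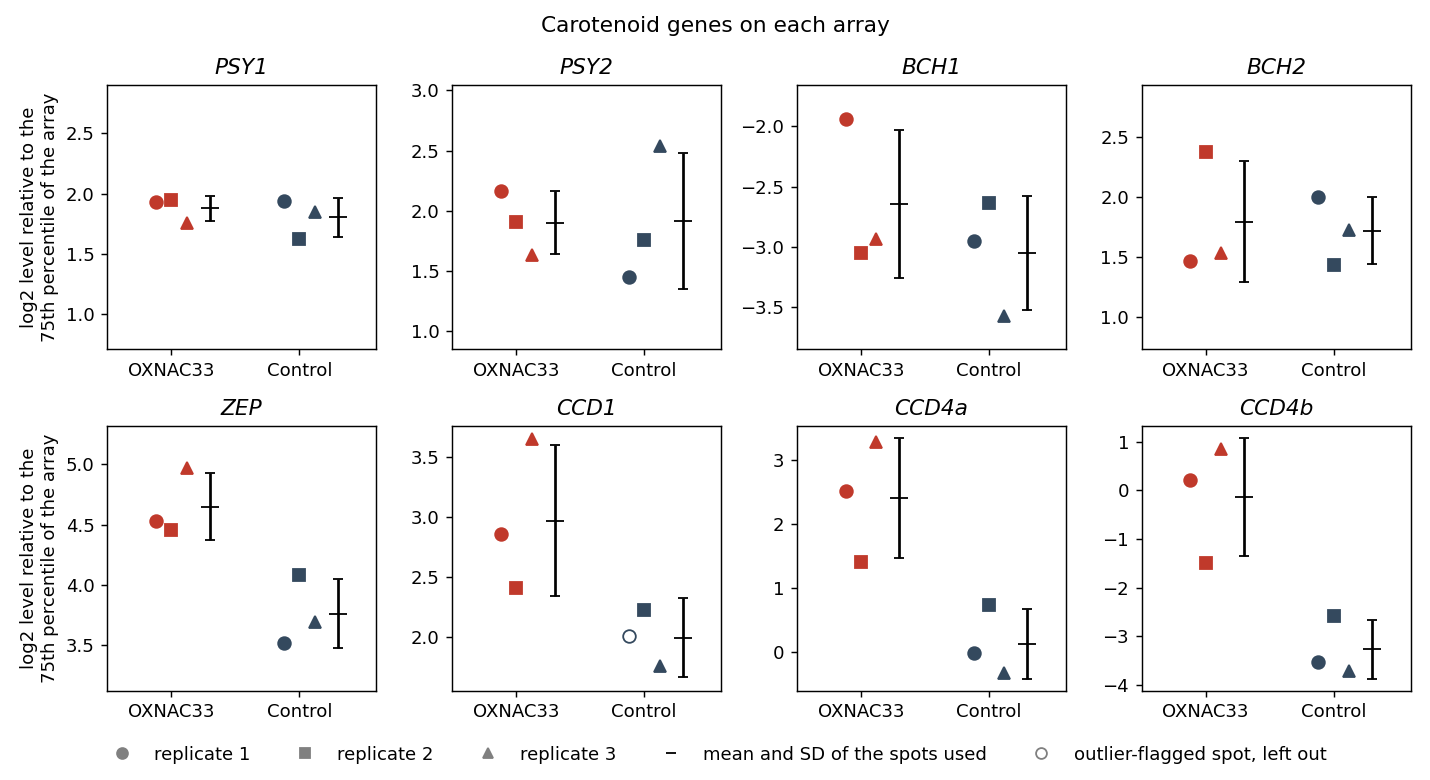
Log2 level of each gene, relative to the 75th percentile of its array, on the OXNAC33 and the Control arrays. Marker shapes give the replicate, bars give the mean and SD of the spots used, and the open circle for *CCD1* is a spot that the scanner software flagged; the groups are separate for *ZEP*, *CCD1*, *CCD4a* and *CCD4b* and overlap for the other 4 genes.

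Entry into the pathway was measured by the probes for phytoene synthase, the enzyme that joins geranylgeranyl units into the first carotenoid. *PSY1* (VIT_04s0079g00680) had log2 levels of 1.93, 1.95 and 1.76 in OXNAC33 replicates 1, 2 and 3, against 1.94, 1.62 and 1.84 in Control. Both groups held to a narrow band, 0.19 wide in OXNAC33 and 0.31 wide in Control, and they overlapped. The change was 0.07 (SE 0.19), or 1.05-fold, with an adjusted p of 0.834, and the 95% interval of the fold was 0.77 to 1.44.

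*PSY2* (VIT_12s0028g00960) had levels of 2.16, 1.91 and 1.63 in OXNAC33, against 1.45, 1.76 and 2.54 in Control. The Control arrays were spread over 1.09 log2 units and enclosed all 3 OXNAC33 arrays. The change was -0.01 (SE 0.32; adjusted p = 0.983), and its interval of 0.577-fold to 1.70-fold was wider than that of *PSY1*. Within scan session 1 OXNAC33 was 0.59 higher, and within session 2 it was 0.52 lower (a difference of -0.52), so no direction can be given. Neither phytoene synthase passed the test, and the intervals leave room for modest changes in either direction.

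The next step was represented by the β-carotene hydroxylases, which add hydroxyl groups to β-carotene on the way to zeaxanthin. *BCH1* (VIT_02s0025g00240) had levels of -1.94, -3.05 and -2.94 in OXNAC33, against -2.95, -2.64 and -3.57 in Control. OXNAC33 replicate 1 was the highest of the 6 arrays, 2.17-fold above the Control mean, while the other OXNAC33 arrays lay within the Control range. The change was 0.41 (SE 0.39), or 1.33-fold, with an adjusted p of 0.534, and it was 0.06 without OXNAC33 replicate 1.

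*BCH2* (VIT_16s0050g01090) had levels of 1.47, 2.38 and 1.54 in OXNAC33, against 2.0, 1.44 and 1.73 in Control. Here OXNAC33 replicate 2 was the high array, at 1.57-fold of the Control mean, and the other OXNAC33 arrays were at 0.841-fold and 0.88-fold. The change was 0.07 (SE 0.31; adjusted p = 0.903), with an interval of 0.631-fold to 1.75-fold, and it was -0.22 without OXNAC33 replicate 2. The arrays that stood highest thus differed between the hydroxylases.

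*ZEP* (VIT_07s0031g00620) encodes zeaxanthin epoxidase, which converts zeaxanthin through antheraxanthin to violaxanthin and works against the de-epoxidation of the xanthophyll cycle. Its levels were 4.53, 4.45 and 4.97 in OXNAC33 replicates 1, 2 and 3, against 3.51, 4.08 and 3.69 in Control. Every OXNAC33 array lay above every Control array, by at least 0.38 log2 units, and the individual lines were 1.70-fold, 1.62-fold and 2.31-fold above the Control mean. The change was 0.89 (SE 0.24), or 1.85-fold with a 95% interval of 1.23 to 2.78. The unadjusted p was 0.00933 and the adjusted p 0.0799 (limma), so it did not pass. The difference was 0.98 within scan session 1 and 1.08 within session 2, each from 3 arrays, and 0.99 (adjusted p = 0.0791) once OXNAC33 replicate 2 was left out.

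**Figure D2:**
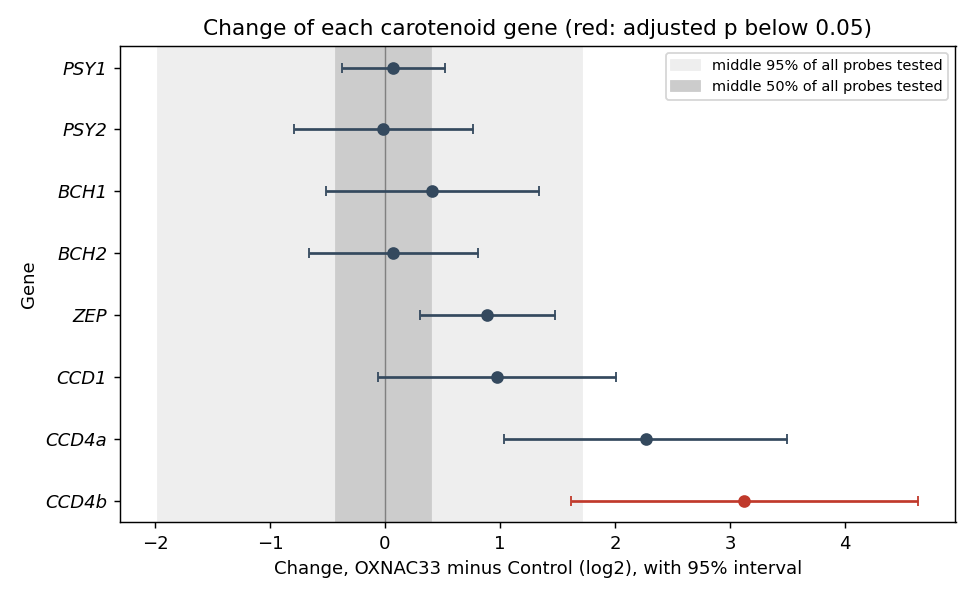
Change of each gene, OXNAC33 minus Control, on the log2 scale (points) with its 95% interval from limma (bars), in pathway order. The grey bands hold the middle 50% (-0.43 to 0.40) and the middle 95% (-1.97 to 1.71) of the changes of all 23907 probes tested; *CCD4a* and *CCD4b* lie to the right of the wider band.

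The remaining 3 genes encode cleavage enzymes. *CCD1* (VIT_13s0064g00840) encodes a dioxygenase that cuts a broad range of carotenoids and apocarotenoids in the cytosol. Its levels were 2.85, 2.40 and 3.64 in OXNAC33, against 2.0, 2.22 and 1.76 in Control. The spot of Control replicate 1 was flagged as an outlier by the scanner software and left out, so the test used 2 Control arrays, although all 3 Control values lay below all OXNAC33 values. The change was 0.97 (SE 0.42), with a fold interval of 0.958 to 4.03 and an adjusted p of 0.205. With the flagged spot kept it was again 0.97, with an adjusted p of 0.131. Without OXNAC33 replicate 2 the change was 1.26 (limma adjusted p = 0.115). OXNAC33 replicate 3 was 3.14-fold above the Control mean, against 1.82-fold for replicate 1 and 1.33-fold for replicate 2. Within scan session 2 the difference was 1.65, from 1 OXNAC33 and 2 Control arrays. No such value exists for session 1, where the only Control spot was the flagged one. With the session as a block the change was 1.65 by construction, since only session 2 then compares the groups.

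*CCD4a* and *CCD4b* encode cleavage enzymes of the plastid, and in other plants *CCD4* genes are known for setting carotenoid content in petals, seeds and leaves. *CCD4a* (VIT_02s0087g00910) had levels of 2.52, 1.41 and 3.27 in OXNAC33 replicates 1, 2 and 3, against -0.01, 0.74 and -0.32 in Control. As a share of each array's 75th percentile signal these were 572%, 266% and 965% in OXNAC33, against 99.3%, 167% and 79.9% in Control. The groups did not overlap, and the gap between the lowest OXNAC33 array and the highest Control array was 0.68. The change was 2.26 (SE 0.51), or 4.81-fold (95% interval 2.05 to 11.3), at the 98.9th percentile of the changes of all probes. Its adjusted p was 0.0549 in limma, just over the threshold. Of the 6 fits without 1 array, only that without OXNAC33 replicate 2 called it, among 10.7% of all probes. There the change was 2.76 and the limma adjusted p 0.025, while over the 6 fits the adjusted p reached 0.172. Of the settings on all arrays with an adjusted p, 2 of 15 called *CCD4a*. Limma with trend and robust estimation called it (adjusted p = 0.0409) among 7.55% of all probes. Limma with spike-in scaling called it (adjusted p = 0.00556) among 1129 of 23907 probes. That scaling left the SE of *CCD4a* at 0.50 but raised that of *PSY1* from 0.19 to 0.50. It also raised the SE of *ZEP*, to 0.46, so its p-values are not on the footing of the main fit. The reason for this shift was not tested. The methods' t-test put both *CCD4a* and *ZEP* under an unadjusted p of 0.05, with 24.3% of all probes, and called neither after adjustment, when 0.00837% of probes were called. Within sessions 1 and 2 the differences were 1.97 and 3.06.

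*CCD4b* (VIT_02s0087g00930) had levels of 0.21, -1.48 and 0.86 in OXNAC33, against -3.52, -2.58 and -3.70 in Control. In percent of the 75th percentile signal, OXNAC33 stood at 116%, 35.8% and 181%, against 8.75%, 16.8% and 7.70% in Control. The lowest OXNAC33 array was 1.09 log2 units above the highest Control array, the widest gap among the 8 genes. The change was 3.12 (SE 0.63), or 8.73-fold, at the 99.7th percentile of all changes, with an adjusted p of 0.0469 (limma). It was 2.88 within session 1 and 4.0 within session 2.

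The call of *CCD4b* was close to its threshold. Of the settings that used all 6 arrays and gave an adjusted p, 10 of 15 called it, with changes between 2.25 and 3.44, and with the scan session as a block the adjusted p was 0.0551 and 0 probes of any gene were called (6844 at an unadjusted p below 0.05). Of the 6 fits that left out 1 array each, only the one without OXNAC33 replicate 2 called it (change 3.80, adjusted p = 0.0198), and it called 10.7% of all probes. The other 5 fits called few probes of any gene, 0.0367% without OXNAC33 replicate 1, 0.0042% without OXNAC33 replicate 3 and 0 without any 1 of the Control arrays, and the change of *CCD4b* lay between 2.63 and 3.47 in them.

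**Figure D3:**
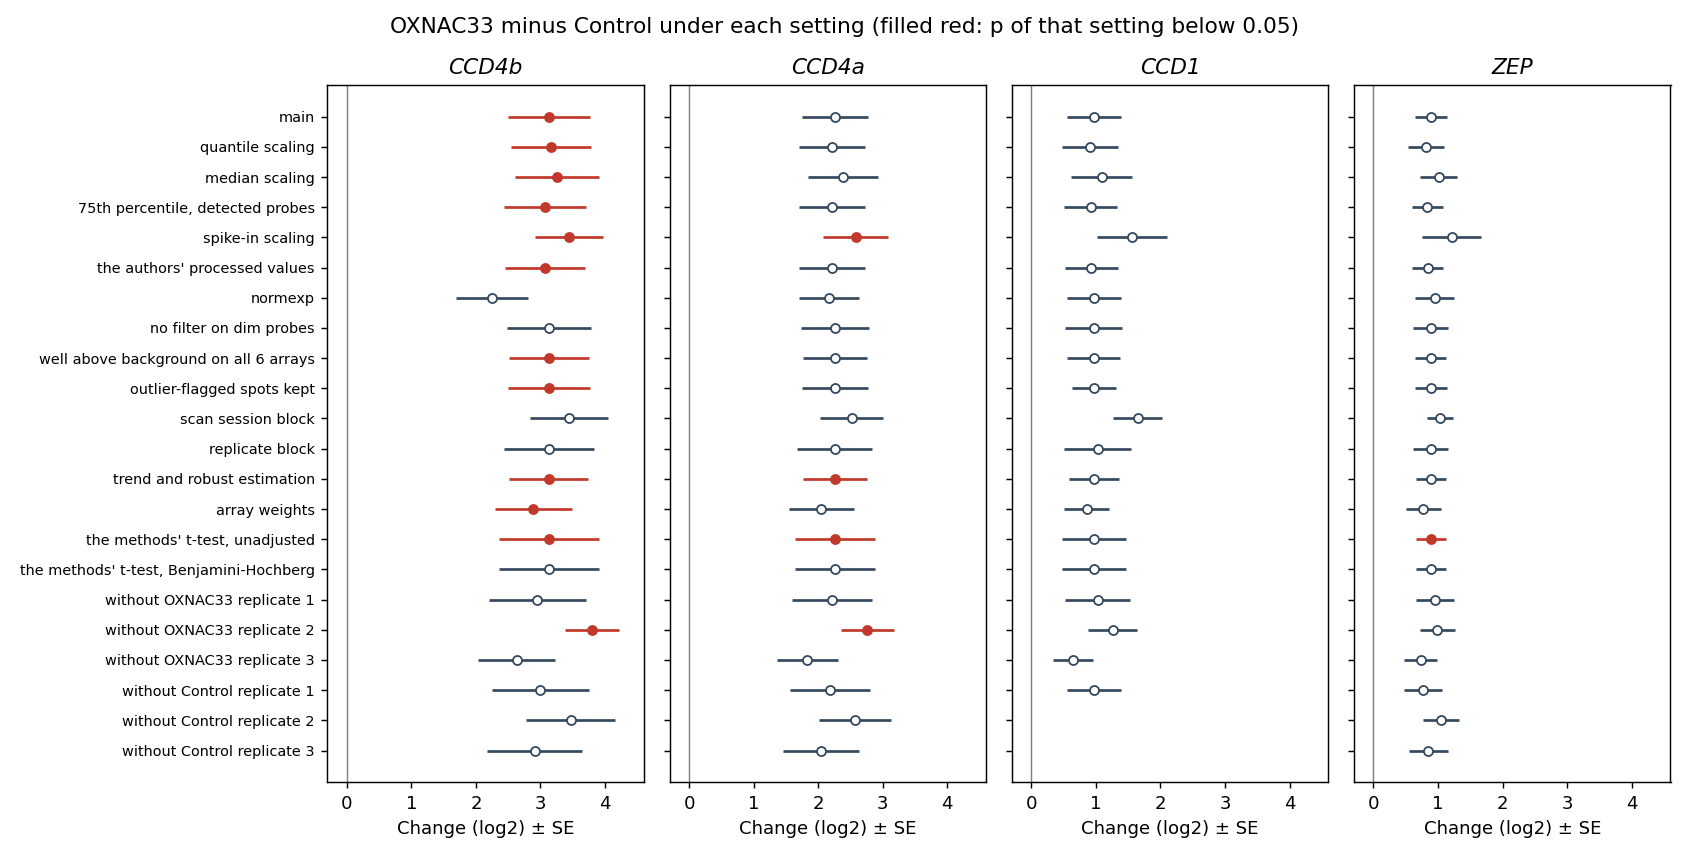
Change of *CCD4b*, *CCD4a*, *CCD1* and *ZEP*, OXNAC33 minus Control on the log2 scale, under each setting (rows), with SE bars; filled red points have a p below 0.05 under the setting named. All changes lie above 0, and *CCD1* could not be fitted without Control replicate 2 or 3, where 1 Control spot would be left.

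The 4 genes with separate groups shared the order of their OXNAC33 arrays. In *ZEP*, *CCD1*, *CCD4a* and *CCD4b* alike, OXNAC33 replicate 3 was highest, replicate 1 next and replicate 2 lowest, and among the Control arrays replicate 2 was highest. *PSY1*, *PSY2*, *BCH1* and *BCH2* each had another order of the OXNAC33 arrays. For *CCD4b* the lines were 11.1-fold, 3.44-fold and 17.4-fold above the Control mean in replicates 1, 2 and 3, and for *CCD4a* 5.21-fold, 2.42-fold and 8.79-fold. *VviNAC33* also had its lowest OXNAC33 value in replicate 2, but its highest in replicate 1. The order of the OXNAC33 arrays was the same in *AAO3*, described below, and another in *CCD1.1*. Compared as whole arrays, OXNAC33 replicate 2 correlated with Control replicates 1, 2 and 3 at 0.947, 0.944 and 0.921. Each of these values was above those of OXNAC33 replicates 1 and 3. The share of all probes with this order was not counted. With 3 arrays a group the order is a description, and no correlation between genes was computed.

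**Figure D4:**
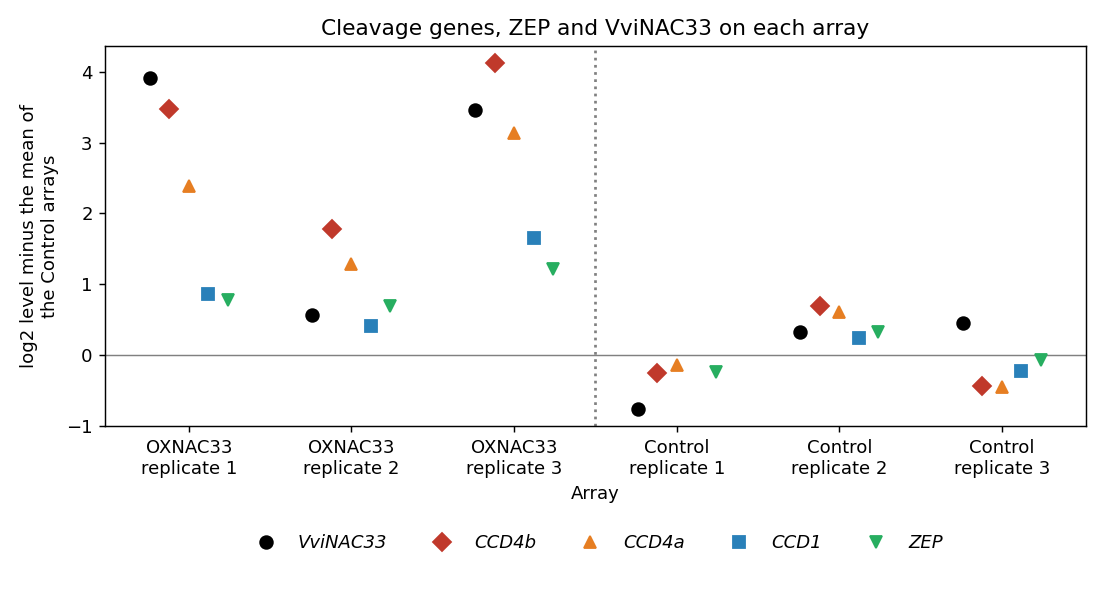
Log2 level of *VviNAC33*, *CCD4b*, *CCD4a*, *CCD1* and *ZEP* on each array, less the mean of the Control arrays for that gene (0 on the vertical axis). OXNAC33 replicate 2 has the lowest value of the OXNAC33 arrays for every gene shown, from 0.41 for *CCD1* to 1.78 for *CCD4b*; the flagged *CCD1* spot of Control replicate 1 is not drawn.

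Genes that encode the same enzyme were compared by whether the one changed more than the other. The difference between *CCD4b* and *CCD4a*, set to 0 at the Control mean, was 1.09, 0.50 and 0.98 in OXNAC33 replicates 1, 2 and 3, against -0.11, 0.08 and 0.02 in Control. *CCD4b* thus changed by 0.86 more than *CCD4a*, a ratio of 1.82-fold, with no overlap between groups. The exact permutation test gave p = 0.10 (two-sided), the smallest that 3 against 3 arrays allow, and p = 0.30 after adjustment over the 3 pairs compared. The difference was 0.90 within session 1 and 0.93 within session 2, but with normexp it was 0.08. The *CCD4b* signals of the Control arrays were 79.67, 137.1 and 79.71, and normexp added an offset of 50 to each signal. Which part of the normexp setting moved the difference was not tested. The *PSY2* change was below that of *PSY1* by 0.09 (difference -0.09, exact permutation p = 0.80, adjusted p = 0.80), and for *BCH2* and *BCH1* the difference was -0.34 (exact permutation p = 0.70, adjusted p = 0.80). In neither pair did the groups separate.

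The identifiers of the cleavage genes fall in runs of neighbours. *CCD4a* and *CCD4b* carry identifiers of chromosome 2 with 1 identifier between them, VIT_02s0087g00920, which was looked up after the values of its neighbours were known and has no gene name in the sources used here. It stood at -3.24, -4.36 and -3.0 in OXNAC33, against -5.58, -5.10 and -5.82 in Control. It rose by 1.97 (SE 0.40), or 3.91-fold, with an adjusted p of 0.0477 in limma and no overlap. Its call was as close to the threshold as that of *CCD4b*. Of the settings on all arrays with an adjusted p, 9 of 15 called it, and the call was lost with quantile scaling (adjusted p = 0.0536), with the session block (0.0584) and with normexp, where the change was 0.27 (0.719). Of the 6 fits without 1 array, only that without OXNAC33 replicate 2 called it, and the adjusted p reached 0.152. From *CCD4a* to *CCD4b* the identifiers thus form an unbroken run of 3 probes whose OXNAC33 arrays lay above their Control arrays, as in 15.1% of all probes tested. The middle probe was dim in Control, at -5.58, -5.10 and -5.82, though well above background on all 6 arrays. Whether these probes also bind each other's transcripts was not tested, since the probe sequences were not used here.

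*CCD1* lies in a similar run on chromosome 13. *CCD1.1* (VIT_13s0064g00810), a second gene annotated by the study as a carotenoid cleavage dioxygenase, had levels of 0.21, -0.38 and 0.05 in OXNAC33, against -0.80, -1.39 and -1.94 in Control. The groups were separate and the change was 1.33 (SE 0.34), or 2.52-fold, with an unadjusted p of 0.00592 and an adjusted p of 0.066. Of the identifiers between *CCD1.1* and *CCD1*, 1 was not above background on any array, and the other differed by 0.66 (adjusted p = 0.369) with overlapping groups.

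**Figure D5:**
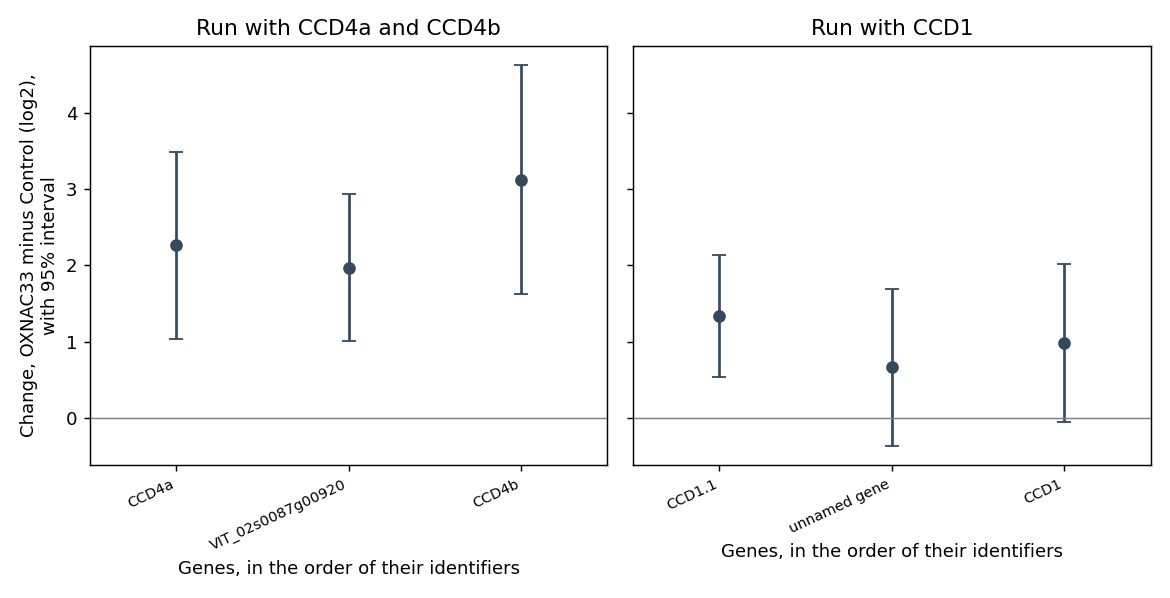
Change, OXNAC33 minus Control on the log2 scale with 95% intervals, of the genes in the run with *CCD4a* and *CCD4b* (left) and in the run with *CCD1* (right), ordered by identifier and not by distance. The identifier of the right run that was below background on all arrays is not drawn; the intervals of all 3 genes on the left lie above 0.

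Other genes of the pathway and of its inputs and outlets were read from the same fit. Of 9 genes that the study annotated in tables made without these arrays, 8 were tested, 0 were called, and at an unadjusted p below 0.05 2 were higher and 1 lower, where 11.7% of all probes were higher and 15.6% lower. The median change of the 8 was -0.15, against -0.01 over all probes. *CCD1.1* was 1 of the higher genes. The other, *AAO3* (VIT_18s0041g02430), annotated as the aldehyde oxidase that makes abscisic acid in the last step of its synthesis, had levels of -2.89, -3.43 and -1.83 in OXNAC33, against -4.30, -4.12 and -4.09 in Control. That is a change of 1.45, or 2.73-fold with an adjusted p of 0.0815. It was 1.81 (adjusted p = 0.0381) without OXNAC33 replicate 2, 1.01 (0.121) without OXNAC33 replicate 3, and 0.48 (0.507) with normexp.

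The abscisic acid 8'-hydroxylases, which break the hormone down, were represented by a pair of probes, and no change was called in either. *A8H-CYP707A2.1* (VIT_06s0004g05050) had levels of -2.46, -2.58 and -4.34 in OXNAC33, against -1.90, -2.08 and -1.51 in Control, a change of -1.30 (adjusted p = 0.169) that was -0.69 without OXNAC33 replicate 3. *A8H-CYP707A2* (VIT_18s0041g02390) read higher in OXNAC33, at -6.52, -6.79 and -5.73, against -8.40, -8.75 and -8.87 in Control, but it was well above background only on OXNAC33 replicate 3 and was not tested. *NSY1*, annotated as a neoxanthin synthase, changed by -0.25 (limma adjusted p = 0.539) and *LUT1*, the hydroxylase of the lutein branch, by -0.18 (0.696), both with overlapping groups. *LUT1* was dim, at 1.57% to 2.72% of the 75th percentile signal, and was not well above background on OXNAC33 replicate 1. The remaining 3 genes of that list, of isoprenoid precursor synthesis, had changes between -0.24 and 0.07.

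A second list of 8 genes was annotated by the study only in its table of genes that changed on these arrays. Neither the direction of its members nor the number that passed is therefore independent evidence, also where it is set beside the share of all probes. In it 0 genes were called higher and 1 lower, and at an unadjusted p below 0.05 3 were higher and 4 lower; over all probes 1.69% and 3.33% were called, and 11.7% and 15.6% passed unadjusted. The called gene was a geranylgeranyl diphosphate synthase (VIT_05s0020g01240), which makes the substrate of phytoene synthase; it fell by 1.21 on the log2 scale, to 0.433-fold of Control (adjusted p = 0.0392), a call lost with the session block (adjusted p = 0.0573) and in 5 of the 6 fits without 1 array. A deoxyxylulose phosphate synthase of the plastid precursor pathway (VIT_02s0012g00960) changed by -0.95 (adjusted p = 0.0562), and the geranylgeranyl reductase (VIT_06s0009g01740), which supplies the side chain of chlorophyll, by -0.68 (adjusted p = 0.0655). On the higher side, the lycopene ε-cyclase *LECY1* of the lutein branch differed by 0.58 (adjusted p = 0.113), with levels of 2.77, 2.55 and 2.46 in OXNAC33, against 2.14, 1.91 and 2.0 in Control, and a fibrillin of plastid lipid bodies (VIT_06s0004g01220) differed by 1.09 (adjusted p = 0.0716).

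The probes most like *CCD4b* and *ZEP* were found by the root mean square difference of log2 profiles over the 6 arrays, each profile centred on its own mean, among 23227 probes without a missing value. For *CCD4b* the nearest was VIT_12s0035g02090, which has no gene name in the sources used here, at 0.17 log2 units and with a change of 3.05. For *ZEP* the nearest were VIT_04s0008g03770, annotated by the study as aspartate aminotransferase P1, at 0.04 log2 units and with a change of 0.82, and VIT_18s0001g01620, annotated as an AarF domain containing kinase, at 0.10 log2 units and with a change of 0.88. The profiles include the difference between the groups, so these genes resemble *CCD4b* and *ZEP* in it by construction.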

How the data were processed

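Total RNA of 6 leaf samples, 3 OXNAC33 and 3 Control, was labelled with Cy3 and hybridised to Agilent 1-colour arrays. The authors deposited scanner tables from Feature Extraction 10.5.1.1 with background-corrected signal intensities and quality flags, and a series table of processed intensities. Here, log2 of the processed signal was reduced by the 75th percentile of each array, and spots flagged as outliers were left out. The flagged spots split by scan session. They numbered 421, 376 and 607 on OXNAC33 replicates 1 and 2 and Control replicate 1 (session 1), and 6, 15 and 20 on OXNAC33 replicate 3 and Control replicates 2 and 3 (session 2). A probe entered the test if every array of 1 group or both had it well above background and each group kept 2 values or more. The 23907 such probes were fitted in R 4.3.3 by lmFit and eBayes of limma 3.58.1, with two-sided p-values adjusted after Benjamini-Hochberg and a threshold of 0.05. Between 69.4% and 74.9% of probes were well above background; the number of arrays limits the precision. The labels call the arrays of a group biological replicates. The fit was run on simulated data with independent noise for each probe and no array, line or session effects. That run checks the calculation and not the calls made in these data. Alternatives covered scaling, background correction, filters, blocks, variance models, the methods' t-test and leaving out each array; normexp was run on median signals in place of the planned mean signals, a choice made after seeing the files, as were the alternatives for the 2 further lists.

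The genes named were the 8 members, *VviNAC33*, the 2 further lists, the leaf markers and the 2 nearest profiles of *CCD4b* and *ZEP*; the second nearest of *CCD4b* has no gene name and is not printed. Gene members, lists and tests were chosen with earlier results of these data known. None of the array identifiers was found in the RefSeq gene table, so no coordinates or sequences are given.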

Additional observations from a re-analysis of the deposited data

How the results depend on the processing

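The changes of *ZEP*, *CCD1*, *CCD4a* and *CCD4b* stayed above 0 under every setting run, within 0.77 to 1.21, 0.86 to 1.65, 2.05 to 2.58 and 2.25 to 3.44 on all arrays. *CCD4b* was not called with normexp (2.25, adjusted p = 0.087), without the filter on dim probes (3.13, 0.0939), with the session block (3.44, 0.0551) or by the methods' t-test after adjustment (3.13, 0.143). In limma *CCD4a* was called with spike-in scaling (2.58, adjusted p = 0.00556), with trend and robust estimation (2.26, 0.0409). The methods' t-test without adjustment, on the values of the fit, gave 0.0222 for *CCD4a* (2.26) and 0.0184 for *ZEP* (0.89). Spike-in scaling moved the median of all probes to 0.31 and median scaling to 0.11, and among called probes 31.2% and 55.4% were lower, against 66.2%. The changes near 0 turned sign: *PSY1* with quantile scaling (-0.03); *PSY2* with median (0.11) and spike-in scaling (0.30), normexp (0.08), session block (0.04) and array weights (0.09); *BCH1* with normexp (-0.03); *BCH2* with quantile scaling (-0.01) and session block (-0.06); *NSY1* and *LUT1* with spike-in scaling (0.07 and 0.14). The *BCH2* and *BCH1* difference was 0.20 with normexp, and that of *PSY2* and *PSY1* was 0.59 within session 1. The cause of these shifts was not tested.

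Leaving out 1 array at a time gave 2.63 to 3.80 for *CCD4b*, 1.83 to 2.76 for *CCD4a*, 0.73 to 1.05 for *ZEP*, 0.64 to 1.26 for *CCD1* (4 fits), -0.02 to 0.14 for *PSY1*, -0.25 to 0.30 for *PSY2*, 0.06 to 0.62 for *BCH1*, -0.22 to 0.24 for *BCH2* and -0.36 to 0.00 for *LUT1*. The paralog differences ran from 0.74 to 1.04 (*CCD4*), -0.39 to 0.20 (*PSY*) and -0.83 to 0.18 (*BCH*). The number of probes called ran from 0 without any 1 Control array (4591 to 5376 at an unadjusted p below 0.05) to 2554 without OXNAC33 replicate 2, with 9 without OXNAC33 replicate 1 and 1 without replicate 3.

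Under the settings of the report 1200 probes were called, with trend and robust estimation 1806, and by the methods' t-test 5805 unadjusted and 2 after adjustment; limma called 0 with normexp (5188 unadjusted), without the filter (6314) and with the session block (6844). In the first further list 1 gene was called with spike-in scaling and 2 by the unadjusted t-test, and 0 to 1 with an array left out. In the second list 2 genes were called with the percentile over detected probes, the authors' values or trend and robust estimation. The unadjusted t-test called 8 in that list, but the study's table was itself chosen by a t-test on these arrays. With spike-in scaling, normexp, no filter, the session block or the adjusted t-test 0 were called, and 0 to 1 with an array left out. The labels do not say whether equal replicate numbers pair the samples. Deviations of same-numbered arrays correlated at 0.26, -0.22 and 0.18, too few values to decide it. With the replicate number as a block, *CCD4b* changed by 3.13 with an adjusted p of 0.107, and 0 probes and 0 genes of the second list were called (5997 probes unadjusted).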
